A study of Bos taurus with 6 samples.

Results

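Germ cells make many messenger RNAs long before the protein is needed, and RNA-binding proteins store these messages, protect them or release them for translation. In the testis this control is best known from spermatids, in which the chromatin is compacted, transcription stops and the last proteins of the sperm are made from stored messages. The genes described here encode 3 groups of such proteins and a helicase: the DAZ family and a partner (DAZL, BOLL and DAZAP1), the Y-box proteins (YBX1, YBX2 and YBX3), the cytoplasmic polyadenylation element binding proteins (CPEB1 and CPEB2) and the RNA helicase DDX25.

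The 9 genes were taken by name, with earlier results of these data known, and found by their symbol in the table of 47249 genes. A row was found for 8 of them. No row carried the symbol CPEB1. The RefSeq locus of CPEB1 is overlapped by 4 rows without that symbol, which were not used, so CPEB1 is not analysed here.

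The libraries were made from the testes of Wandong cattle (Bos taurus), a local breed, after ribosomal RNA had been depleted from total RNA. The groups were 3 untreated immature calves aged 3 months and 3 untreated andrologically mature bulls aged 3 years, with 1 library per animal. Each library is a piece of whole testis, so a lower level can mean fewer cells of a type or less RNA per cell, and these cannot be told apart. Levels are given in FPKM, in which the fragments of a gene are scaled to its transcript length and to all mapped fragments, as deposited by the authors.

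The library labelled calf 3 stood apart and its label is in doubt. Its correlation of log2(FPKM + 1) over all genes was 0.839 with calf 1 and 0.844 with calf 2, whereas calf 1 and calf 2 reached 0.985 and the pairs of bulls 0.976 to 0.979. The summed FPKM of 8 marker genes of oligodendrocytes, astrocytes and neurons reached 13683 in calf 3 but stayed from 6.90 to 12.8 elsewhere, all 8 genes were highest in calf 3, and none was at 0 there. The 7 Sertoli cell markers were all lower in calf 3 than in calf 1 and calf 2, with FSHR, WT1 and GATA4 listed at 0. The germ cell gene DDX4 had 14.0 in calf 1 and 20.2 in calf 2 but 0.0152 in calf 3. Their part in the results below was not tested, and the results for each of the genes described here are given with and without calf 3.

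The comparison of bulls with calves asked which of these genes changed with sexual maturity. On the log2(FPKM + 1) scale, 6 of the 8 genes were called higher in bulls, BOLL, DDX25, YBX1, YBX2, YBX3 and DAZAP1, and none was called lower. Genes were called where limma gave an adjusted p below 0.05 (Benjamini-Hochberg over 18115 genes) and the groups differed by 1 or more on that scale. By the same rule, 35.7% of all genes tested were called higher in bulls and 9.61% lower, 45.3% in either direction. DAZL and CPEB2 were not called with all libraries. Without calf 3 all 8 genes were called higher, against 37.9% of all genes, with 13.6% of them lower.

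In each of the 8 genes all 3 bulls lay above all 3 calves in FPKM, as they did in 46.1% of all genes tested. By rank within a library, however, CPEB2 stood higher in calf 3 (at or above 71.2% of the genes tested) than in bulls (64.1% to 65.6%). The log2 fold changes of the 8 genes lay between 1.03 for CPEB2 and 8.05 for YBX2, with a median of 3.36, whereas the median of all genes tested was 0.43. Without calf 3 these medians were 2.83 and 0.43. Quantile normalization moved the median of all genes to −0.26 and left the same number of these genes, 6, called higher and 0 lower, against 21.1% and 25.1% of all genes. With calf 3 also left out it was again 6, against 22.4%. Of the 8 genes, YBX2 passed the filter on low values (FPKM of 1 or more in 3 or more libraries) only through the bulls. It could therefore be called higher only, and the filter itself placed its bulls above its calves.

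**Figure D1:**
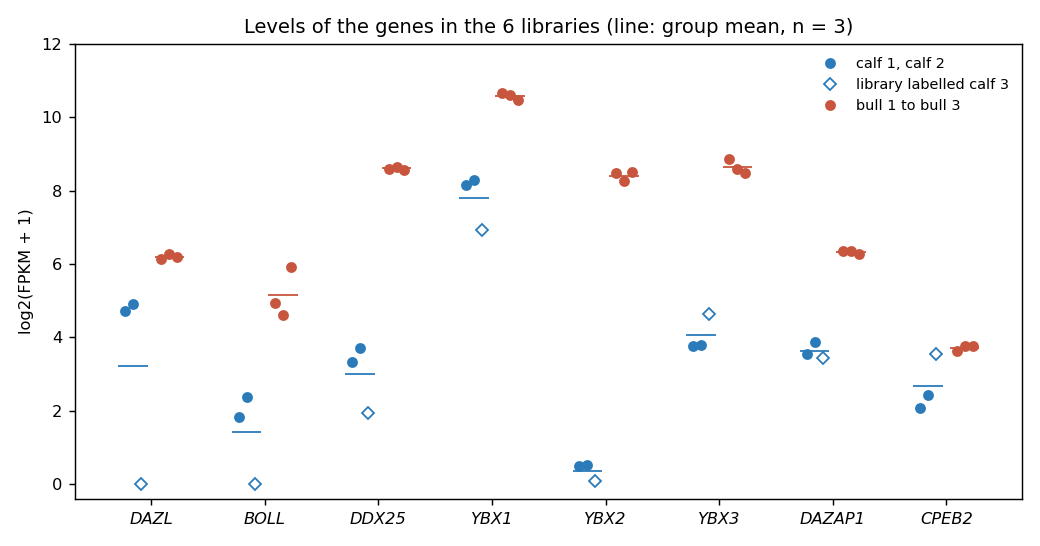
Level of each gene in each library as log2(FPKM + 1). Blue circles are calf 1 and calf 2, open diamonds the library labelled calf 3, red circles the 3 bulls, and short lines the group means over 3 libraries. YBX2 lies near 0 in every calf and above 8 in every bull, whereas DAZL and BOLL lie at or near 0 in calf 3 only.

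DAZL is a germ cell protein with an RNA recognition motif that binds messages and promotes their translation. Its gene (ENSBTAG00000000502) is on chromosome 1, from 153640084 to 153663068 in the coordinates of the table (an ARS-UCD assembly). DAZL had an FPKM of 25.6 in calf 1, 29.1 in calf 2, 68.9 in bull 1, 77.0 in bull 2 and 71.5 in bull 3, and was listed at 0 in calf 3. Calf 1 and calf 2 were close together and below all bulls, and the library labelled calf 3 was far from both.

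The log2 fold change of DAZL was 2.98, with a 95% confidence interval from −0.26 to 6.23 (SE, the standard error, 1.32, limma adjusted p = 0.103), an interval that includes 0. Without calf 3 it was 1.38 (SE 0.11, adjusted p = 7.44e-05) and DAZL was called. When calf 3 was left out and the libraries were quantile normalized, it was 0.56 (adjusted p = 0.00168), under the fold change required. The transcript DAZL-201 (ENSBTAT00000048665) held nearly all of the level in both groups and, like the gene, was not called (log2 fold change 2.98, limma adjusted p = 0.107). In calf 1 and calf 2, DAZL already lay at or above 90.1% and 90.8% of the genes tested, and in bulls at or above 93.8% to 94.5%.

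BOLL, the member of the DAZ family that is conserved most widely among animals, acts later than DAZL, in meiosis and in spermatids. The gene (ENSBTAG00000031614) lies on chromosome 2 from 86198418 to 86295921. BOLL had an FPKM of 2.58 in calf 1, 4.22 in calf 2 and 0.00579 in calf 3. The bulls, numbered in the same way, had 29.5, 23.5 and 59.1, all above the calves, with bull 3 well above the other bulls. Bulls exceeded calves by 3.74 on the log2 scale (SE 0.68, limma adjusted p = 0.00448), and 3.04 (SE 0.39, adjusted p = 0.000637) without calf 3.

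The spread of BOLL between bulls was the widest of the 8 genes. Its coefficient of variation (the SD divided by the mean) was 50.9% in bulls, larger than in 94.5% of the genes tested, while it lay between 3.21% (DDX25) and 14.3% (YBX3) for the other 7 genes and had a median of 13.4% over all genes tested.

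The table of transcripts lists 7 transcripts of BOLL, 4 of them assembled from the reads, and their values also differed between bulls. BOLL-201 (ENSBTAT00000044801) had an FPKM of 6.10 in bull 1, 0.368 in bull 2 and 43.9 in bull 3, and made up 20.7%, 1.56% and 74.4% of BOLL in them. The other 6 transcripts together had an FPKM of 23.4, 23.2 and 15.1 in the same bulls, so that bull 3 was the lowest bull once BOLL-201 was set aside. With BOLL-201 set aside the coefficient of variation in bulls was 22.9%.

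The assembled transcripts TCONS_00168217 and TCONS_00168230 were the BOLL transcripts that passed the filter, and both were called higher in bulls. TCONS_00168217, which was below 1 in every calf and so passed the filter through the bulls alone, was higher by a log2 fold change of 2.73 (SE 0.34, limma over 23212 transcripts adjusted p = 0.000921) and TCONS_00168230 of 2.18 (SE 0.48, adjusted p = 0.0101). Among all transcripts tested, 34.8% were called higher and 9.37% lower. The bulls differed in which of them led: TCONS_00168230 was at 6.42, 11.0 and 3.38 and TCONS_00168217 at 9.10, 9.10 and 4.36 in bull 1, bull 2 and bull 3. Below the filter, BOLL-202 (ENSBTAT00000065390) was at 0.354, 0.736 and 0 in the calves and 5.80, 0.633 and 6.05 in the bulls, with overlap, and the assembled transcript TCONS_00168233 was at 0.439, 0.568 and 0 against 1.45, 1.74 and 0.882. How fragments from exons shared by several transcripts were divided between them is not given in the sources used here.

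**Figure D2:**
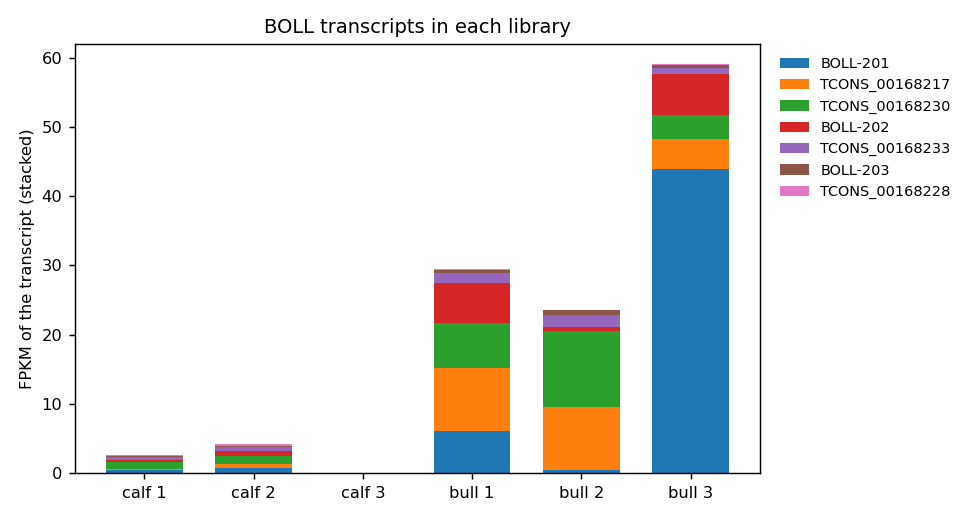
FPKM of the 7 BOLL transcripts, stacked, in each library. BOLL-201 reaches 43.9 in bull 3, 6.10 in bull 1 and 0.368 in bull 2, while the column of calf 3 is too low to be seen.

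Within a library, the share of BOLL in the summed FPKM of DAZL and BOLL does not depend on how the library was scaled. It was 9.18% in calf 1 and 12.6% in calf 2, while the bulls had 30.0%, 23.4% and 45.2%, all above both calves. In calf 3 both genes were at or near 0, and the share of 100% there rests on an FPKM of 0.00579. With calf 3 the difference of the group means was −7.74 percentage points (two-sided exact permutation, p = 1). Without it the difference was 21.96 percentage points (two-sided exact permutation, p = 0.2), in a design of 10 labelings.

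DAZAP1 is a widely made RNA-binding protein that was found as a partner of the DAZ proteins. Its gene (ENSBTAG00000019714) lies on chromosome 7 from 43824822 to 43843948. The FPKM was 10.7, 13.6 and 9.81 in calf 1, calf 2 and calf 3 (11.4 ± 2.01, SD, n = 3) and 80.4, 81.5 and 76.0 in the bulls (79.3 ± 2.91, SD, n = 3). Calf 3 lay close to the other calves in this gene, and the groups were far apart. Bulls exceeded calves by 2.71 on the log2 scale (SE 0.17, limma adjusted p = 5.27e-05), and 2.62 without calf 3.

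Of the 16 transcripts of the 8 genes that were tested, 14 were called higher in bulls and none lower. Over all transcripts tested, 34.8% were called higher and 9.37% lower. However, 6 of the 14 were below 1 in every calf, and their direction was fixed by the filter. Of the other 10 tested, 8 were called higher, and no share over all transcripts kept in this way was computed. Of the 4 DAZAP1 transcripts, all passed the filter and 3 were called higher in bulls. Among those 3, 1 with a small share of the level was below 1 in every calf and could be called higher only. DAZAP1-202 (ENSBTAT00000077591) held 57.7% of the mean level in calves and 74.0% in bulls, and differed by 3.02 on the log2 scale (SE 0.26, limma adjusted p = 0.000220). The assembled transcript TCONS_00327717 was called as well, and differed by 2.56 on the log2 scale (SE 0.39, adjusted p = 0.00226). By contrast, the assembled transcript TCONS_00327720 had an FPKM of 2.71, 2.29 and 4.49 in calves and 4.197, 3.25 and 4.39 in bulls, and the groups overlapped (log2 fold change 0.28, SE 0.26, limma adjusted p = 0.411). Its share of DAZAP1 was 27.8% of the mean level in calves and 4.97% in bulls.

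DDX25, also called gonadotropin-regulated testicular helicase, is a DEAD-box RNA helicase of meiotic germ cells and round spermatids that is needed for the export and translation of messages and for spermatids to complete their development. Its gene (ENSBTAG00000004266) lies on chromosome 29 from 29259451 to 29279562. The FPKM of DDX25 in calf 1, calf 2 and calf 3 was 9.11, 12.1 and 2.87, and that of the bulls, in the same order, 388, 402 and 377 (389 ± 12.5, SD, n = 3). The bulls were nearly equal, and calf 3 was the lowest calf.

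The mean FPKM of DDX25 in bulls was 48.5 times the mean of the 3 calves and 36.7 times the mean of calf 1 and calf 2. Bulls exceeded calves by 5.61 on the log2 scale (SE 0.46, limma adjusted p = 0.000153), and 5.08 (SE 0.13, adjusted p = 1.09e-06) without calf 3. Within its library, DDX25 moved from at or above 69.0% and 74.6% of the genes tested in calf 1 and calf 2 to 99.4% to 99.5% in bulls. One transcript, DDX25-203 (ENSBTAT00000005587), held 96.3% of the mean level in calves and 99.3% in bulls (log2 fold change 5.64, limma adjusted p = 0.000162).

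The Y-box proteins carry a cold-shock domain and coat messenger RNA. YBX1 is made in most cells, YBX3 is abundant in several tissues including testis, and YBX2, also called MSY2 or contrin, is limited to germ cells, where it binds and stabilizes stored messages. All 3 genes rose from calves to bulls.

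YBX2 (ENSBTAG00000009126) lies on chromosome 19 from 26988948 to 26996169. It was at 0.406 in calf 1, 0.436 in calf 2 and 0.0593 in calf 3, while the bulls had 355, 304 and 362 (340 ± 31.4, SD, n = 3). All calves were below 1, and in this gene calf 3 was again the lowest calf. This difference, 8.05 on the log2 scale (SE 0.18, limma adjusted p = 2.79e-06), was the largest of the 8 genes, and it was 7.90 without calf 3. Adding 1 to each FPKM makes such a value smaller than the plain ratio of the mean FPKM, which was 1133 over the 3 calves and 808 over calf 1 and calf 2.

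The main transcript of YBX2, YBX2-202 (ENSBTAT00000012026), was at 353, 302 and 360 in the bulls and held 99.4% of their mean level. It was listed at 0 in calf 3 and had 0.406 and 0.294 in calf 1 and calf 2. YBX2-201 (ENSBTAT00000071621) lay between 1.88 and 2.02 in bulls and between 0 and 0.142 in calves. Both transcripts passed the filter through the bulls alone and were called higher, the log2 fold changes being 8.11 and 1.46 (limma adjusted p = 3.85e-06 and 9.92e-05).

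YBX3 (ENSBTAG00000009663) lies on chromosome 5 from 98853392 to 98878560. Calf 1, calf 2 and calf 3 were at 12.7, 12.9 and 23.8, and bull 1, bull 2 and bull 3 at 465, 382 and 355 (400 ± 57.3, SD, n = 3). Here calf 3 was the highest calf, and the log2 fold change of 4.57 (SE 0.28, limma adjusted p = 5.49e-05) became 4.85 without it. In the mean of the calves, YBX3-201 (ENSBTAT00000082669) held 68.8% and YBX3-202 (ENSBTAT00000074030) 31.1% of the level, and in the bulls 95.03% and 4.95%. Bulls exceeded calves by 4.99 on the log2 scale (SE 0.25, limma adjusted p = 3.60e-05) for YBX3-201 and 1.72 (SE 0.45, adjusted p = 0.0194) for YBX3-202. In every bull the share of YBX3-202, between 3.45% and 6.94%, lay below its share in every calf, between 28.0% and 34.0%.

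YBX1 (ENSBTAG00000017368) lies on chromosome 3 from 103521364 to 103539465. It was the highest of the 8 genes in every library, at 286, 315 and 122 in the calves and 1609, 1571 and 1416 in the bulls (1532 ± 102, SD, n = 3). Calf 3 was the lowest calf, and the groups were far apart. Bulls exceeded calves by 2.78 on the log2 scale (SE 0.44, limma adjusted p = 0.00237), and 2.34 (SE 0.12, adjusted p = 1.52e-05) without calf 3. YBX1-201 (ENSBTAT00000023094) held nearly all of the level in both groups. YBX1 has processed copies in mammalian genomes, and how their reads were assigned is not given in the sources used here, so its level is less certain than those of the other genes.

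The summed FPKM of the 3 Y-box genes was 299 and 328 in calf 1 and calf 2, 146 in calf 3, and between 2132 and 2428 in bulls. YBX2 made up 0.136%, 0.133% and 0.0408% of this sum in the calves, and 14.6%, 13.5% and 17.0% in the bulls. The difference of the group means was 14.92 percentage points (two-sided exact permutation, p = 0.1, the lowest value possible with 3 libraries in each group). The share of YBX1 was 95.6%, 95.9% and 83.6% in calves and 66.3%, 69.6% and 66.4% in bulls, with no overlap. For YBX3 the share was 4.25% and 3.94% in calf 1 and calf 2 and between 16.6% and 19.1% in bulls, and in calf 3 it was 16.3%, close to the bulls. The shares of YBX1 and YBX3 were computed after the levels had been seen.

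**Figure D3:**
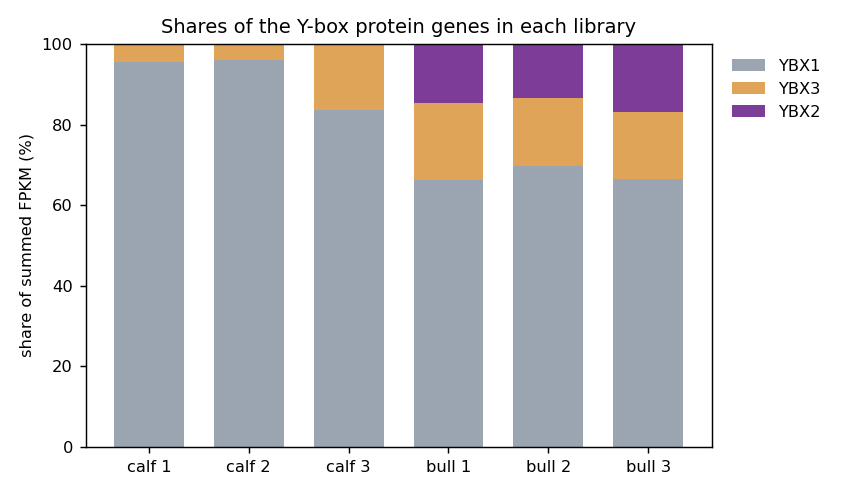
Share of YBX1, YBX3 and YBX2 in the summed FPKM of the 3 genes, in percent, for each library. YBX2 takes 13.5% to 17.0% in the bulls and is too thin to be seen in the calves, and YBX3 is wider in calf 3 (16.3%) than in calf 1 and calf 2.

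CPEB proteins bind an element of messages that are stored with a short poly(A) tail and control when the tail is lengthened and translation begins. CPEB1 is the member known from meiotic germ cells, and CPEB2, CPEB3 and CPEB4 form the other branch of the family. CPEB2 (ENSBTAG00000019847) lies on chromosome 6 from 110150627 to 110219555. Its FPKM was 3.19 in calf 1, 4.36 in calf 2 and 10.7 in calf 3, while the bulls had 11.3, 12.5 and 12.5. The library labelled calf 3 was close to the bulls, while calf 1 and calf 2 were far below them.

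The log2 fold change of CPEB2 was 1.03, with a 95% confidence interval from 0.068 to 1.996 (SE 0.39, limma adjusted p = 0.0673). Without calf 3 it was 1.47 (SE 0.15, adjusted p = 0.000248) and CPEB2 was called. When calf 3 was left out and the libraries were quantile normalized, the value was 0.95 (adjusted p = 0.00126), just under the fold change required. Within its library, CPEB2 lay at or above 43.0% and 48.8% of the genes tested in calf 1 and calf 2, 71.2% in calf 3 and 64.1% to 65.6% in bulls.

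CPEB3 and CPEB4, named here as relatives of CPEB2 after their values were seen, were highest in calf 3, above all bulls, whereas CPEB2 in calf 3 stayed below them. CPEB3 was at 4.39, 5.30 and 22.3 in the calves and 13.5, 11.9 and 14.4 in the bulls, and CPEB4 at 5.04, 5.44 and 28.1 against 9.47, 10.03 and 8.54. Neither was called with all libraries (limma adjusted p = 0.387 and 0.989), and without calf 3 CPEB3 was called higher (log2 fold change 1.29 in place of 0.62, adjusted p = 0.000317). When the libraries without calf 3 were quantile normalized, the change of CPEB3 was 0.78 (limma adjusted p = 0.00280), under the fold change required. Of the summed FPKM of CPEB2, CPEB3 and CPEB4, CPEB2 made up 25.3%, 28.9% and 17.6% in the calves and 33.1%, 36.3% and 35.3% in the bulls, a difference of 10.96 percentage points (two-sided exact permutation, p = 0.1, the smallest possible) and of 7.78 without calf 3.

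The table lists 10 transcripts of CPEB2, 6 of them assembled, and 2 passed the filter. The assembled transcript TCONS_00315349 was at 0.631, 1.42 and 3.68 in the calves and 5.26, 5.85 and 6.60 in the bulls (log2 fold change 1.38, SE 0.40, limma adjusted p = 0.0299). CPEB2-202 (ENSBTAT00000026443) was at 0.534, 0.400 and 0.433 in the calves, with calf 3 between calf 2 and calf 1, and at 3.03, 3.20 and 2.54 in the bulls (log2 fold change 1.43, SE 0.15, limma adjusted p = 0.000418), and passed the filter through the bulls alone. The assembled transcript TCONS_00315349 held 31.3% of the mean level in calves and 48.7% in bulls. The assembled transcripts TCONS_00315357 and TCONS_00315358, with 16.8% and 10.2% in calves, were lower in every bull than in every calf but stayed below the filter, at 0.194 to 0.3201 and 0.196 to 0.370 in bulls. Their highest values, 2.20 and 0.900, were in calf 3.

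**Figure D4:**
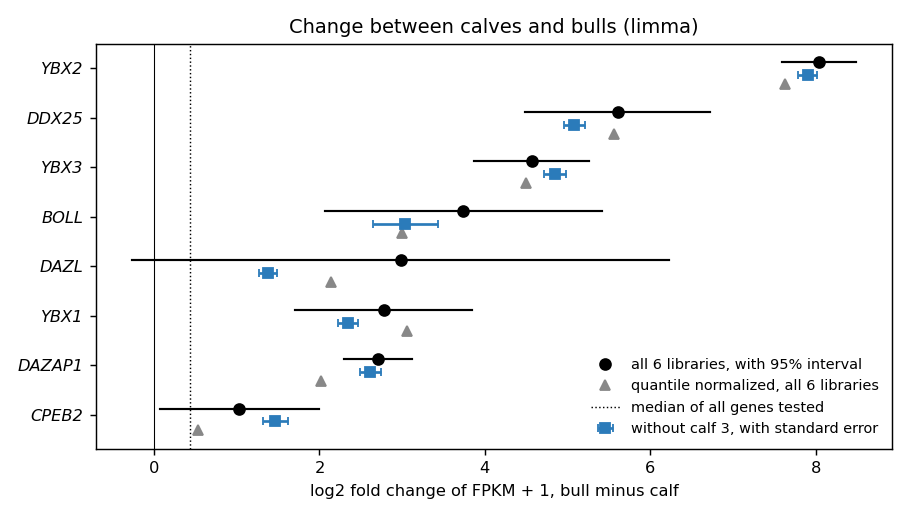
Log2 fold change (bull minus calf) of each gene. Black circles with 95% confidence intervals are from all 6 libraries, blue squares with standard errors from the 5 libraries without calf 3, gray triangles from quantile normalized values, and the dotted line is the median of all genes tested (0.43). The interval of DAZL reaches from −0.26 to 6.23 and that of YBX2 from 7.60 to 8.49.

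FPKM is scaled by length, so the levels of different genes can be set side by side. In bulls the order of the mean levels was YBX1, YBX3, DDX25, YBX2, DAZAP1, DAZL, BOLL and CPEB2. The ranges of YBX3 and DDX25 overlapped, as did those of DAZAP1 and DAZL, and all other neighbors were separate in every bull. In calves the order was YBX1, DAZL, YBX3, DAZAP1, DDX25, CPEB2, BOLL and YBX2. YBX1 was separate from the rest, and each of the other neighbors overlapped over the 3 calves. YBX2 was thus the lowest of the 8 genes in calf 1 and calf 2 and the fourth highest in the mean of the bulls.

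The gene whose log2(FPKM + 1) followed each of the 8 genes most closely over the 6 libraries was sought among 13317 other genes with a symbol. It was LDHC for DDX25 (Pearson r = 0.9998), FAM71D for YBX2 (0.9999), ANO1 for YBX3 (0.9999), HSD17B3 for YBX1 (0.9998), TDRP for DAZAP1 (0.9999), GMPS for DAZL (0.9995), PITRM1 for BOLL (0.9981) and PINK1 for CPEB2 (0.9981). LDHC, the lactate dehydrogenase subunit of germ cells, was at 3.21, 4.92 and 0.168 in the calves and 335, 378 and 352 in the bulls. PINK1, a mitochondrial kinase, was at 9.73, 14.1 and 58.0 in the calves, high in calf 3 as CPEB2 was. These correlations describe 6 points that share the contrast of age and the values of calf 3. A correlation above 0.99 was reached by 1145 genes for YBX2, 1111 for DAZAP1, 723 for DDX25, 615 for YBX3 and 444 for YBX1, but only by 85 for DAZL, 40 for CPEB2 and 31 for BOLL.

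Summed levels of markers of spermatocytes and spermatids were, like each of these genes, higher in every bull than in every calf. Calf 3 did not follow 1 pattern. CPEB2 (10.7) and YBX3 (23.8) were highest there among the calves, whereas the sum of the spermatocyte markers was lowest. The summed FPKM of 7 markers of spermatocytes was 18.6 and 24.8 in calf 1 and calf 2, 2.93 in calf 3 and 283 to 343 in bulls. For 6 markers of round spermatids it was 2.18, 2.23 and 0.335 in the calves and 341 to 400 in bulls, and for 6 markers of elongating spermatids 1.27 to 1.45 in calves and 13470 to 15294 in bulls. Every gene of these 3 lists was called higher with all libraries, against 35.7% of all genes tested. Without calf 3 the same held for all but 1 of the spermatocyte markers, against 37.9% of all genes. After quantile normalization 5 of the 7 spermatocyte markers were called higher, without SYCP1 and SPO11, against 21.1% of all genes. Of these markers, all 6 of elongating spermatids, 5 of 6 of round spermatids and 2 of 7 of spermatocytes were below 1 in every calf and could therefore be called in 1 direction only. The sum over 7 markers of spermatogonia was 108, 130 and 234 in the calves and 138 to 142 in bulls, and 2 of the 7 were called higher and 1 lower. In calf 3, 200.7 of the sum came from UCHL1, which was at 25.6 and 30.0 in calf 1 and calf 2, while DMRT1 was at 0.0938 there. Whether each germ cell of bulls held more RNA of the genes described here was not tested.

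Other genes were taken as 5 lists with 70 genes in all, 4 lists of proteins of RNA control and 1 of the messages they are known to bind or store. In the 4 lists of proteins, 19 of the 53 genes tested (35.8%) were called higher and 2 lower, a share near the 35.7% of all genes tested, and their median log2 fold change was 0.47, against 0.43 over all genes. Without calf 3, when 37.9% of all genes were called higher and 13.6% lower, the calls higher and lower were 5 and 0 of 11 for cytoplasmic polyadenylation, 4 and 1 of 8 for repressors of the germ line, 2 and 2 of 13 for messenger ribonucleoproteins and 8 and 0 of 21 for RNA-binding proteins of meiosis and spermatids.

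Of the 13 messages known to be bound or stored in germ cells, 11 were tested and all 11 were called higher in bulls, as they were without calf 3. Of these, 7 (PRM1, PRM2, TNP1, TNP2, SMCP, ODF1 and AKAP4) were below 1 in every calf, passed the filter through the bulls alone and could be called higher only. With an FPKM of 1 or more required in all 6 libraries, 2 were called. PRM1, a protamine that packs sperm DNA, reached 11994, 10299 and 10079 in the bulls and was below 1 in every calf (log2 fold change 12.94, limma adjusted p = 2.53e-06). The transition proteins TNP1 and TNP2, which replace histones before the protamines do, had log2 fold changes of 10.62 and 9.69. PRM3, which was not tested, was at 326 in bull 1, 17.7 in bull 2 and 0.881 in bull 3, and its locus overlaps that of PRM2. These messages were chosen for being known from germ cells, so the direction of the list is not independent of the choice.

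Among 21 RNA-binding proteins of meiosis and spermatids, 8 were called higher, 1 lower and 12 not called, with a median log2 fold change of 0.46. Both the share called higher and the median were near those of all genes tested (35.7% and 0.43). The genes with the largest increases were ADAD1, a testis protein with an adenosine deaminase domain (log2 fold change 6.28, limma adjusted p = 0.00112), MEIOC, which keeps cells in meiotic prophase (4.91, adjusted p = 0.000112), and KHDRBS3, a splicing regulator (4.33, adjusted p = 1.90e-05). ADAD1 and MEIOC were listed at 0 in calf 3. MSI2, which binds messages of stem and progenitor cells, was lower in bulls, at 10.3, 13.4 and 20.0 in the calves and 5.10, 6.55 and 6.64 in the bulls (log2 fold change −1.09, limma adjusted p = 0.0146). Without calf 3 its change was −0.85 (limma adjusted p = 0.00471), under the fold change required, and after quantile normalization MSI2 was called lower. PAIP2, which inhibits the poly(A) binding protein, had the highest level among those not called, at 88.4 to 106 in calves and 132 to 150 in bulls.

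For 15 proteins of messenger ribonucleoproteins, 14 had a row, 13 were tested, 3 were called higher and 1 lower, and the median was 0.45. The shares of all genes tested were 35.7% called higher and 9.61% lower, and their median was 0.43. Members of the fragile X family lay on both sides. FXR1 rose from 57.6, 56.1 and 45.8 in the calves to 297, 288 and 295 in the bulls (log2 fold change 2.45, limma adjusted p = 8.52e-05), and FMR1 fell from 43.0, 51.0 and 13.5 to 5.70, 5.34 and 5.17 (−2.33, adjusted p = 0.00821). Both kept their call without calf 3 and after quantile normalization. PATL1, of the decapping machinery, was called higher (1.47, limma adjusted p = 0.00192), but after quantile normalization its change, 0.94, was under the fold change required. CAPRIN1 had the highest level among those not called (log2 fold change 0.59, adjusted p = 0.0157).

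Of 11 genes of cytoplasmic polyadenylation other than CPEB1 and CPEB2, 4 were called higher, none lower and 7 not at all, with a median of 0.85. Over all genes tested, 35.7% were called higher and 9.61% lower, with a median of 0.43. SYMPK, the scaffold of the complex, was at 6.48, 8.38 and 9.74 in the calves and 45.3, 42.0 and 43.3 in the bulls (log2 fold change 2.29, limma adjusted p = 0.000128). The cleavage and polyadenylation factor genes CPSF4 and CPSF2 had log2 fold changes of 1.54 and 1.49, and CPSF2 lost its call after quantile normalization (0.79). TOB1, which recruits deadenylase, had the highest level among those not called (0.85, adjusted p = 0.0103).

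Among 10 repressors of the germ line, 8 were tested, 4 were called higher and none lower (median 0.96). By comparison, 35.7% of all genes tested were called higher and 9.61% lower (median 0.43). SAMD4A, NANOS3 and SAMD4B had log2 fold changes of 2.53, 2.44 and 1.62 (limma adjusted p = 0.0286, 0.00182 and 0.00527). SAMD4A had 4.57 in calf 1 and 3.26 in calf 2, whereas calf 3 had 29.1, and it was at 44.2, 48.6 and 60.0 in the bulls. Its log2 fold change was 3.40 without calf 3, and its call was lost after quantile normalization (1.86, limma adjusted p = 0.0772). DND1, named after its values were seen because its call rests on 1 library, was at 17.5 and 19.7 in calf 1 and calf 2, 0.429 in calf 3 and 3.34 to 4.55 in bulls. It was called lower without calf 3 (limma adjusted p = 7.39e-05 against 0.564 with it).

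**Figure D5:**
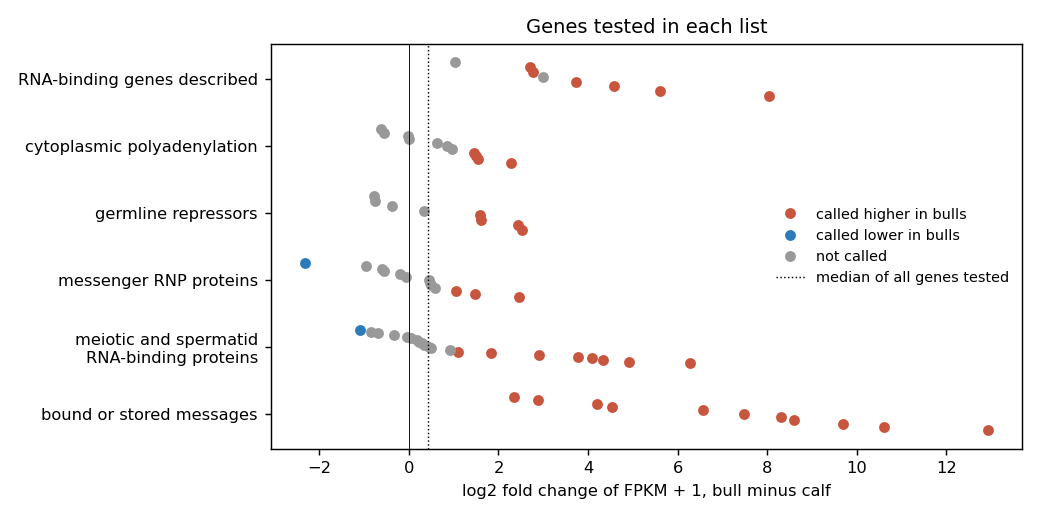
Log2 fold change (bull minus calf) of each gene tested, for the 8 genes described here (top) and for the 5 lists of other genes, spread vertically within a list. Red marks genes called higher in bulls, blue genes called lower and gray genes not called, and the dotted line is the median of all genes tested. All 11 bound or stored messages are red, whereas each of the other 4 lists holds gray points.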

How the data were processed

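The deposited values are FPKM for each of the 6 libraries, by gene and by transcript, without counts. According to the Methods, reads that matched ribosomal RNA were removed with Bowtie2, the others were mapped with TopHat2, and transcripts were assembled with StringTie. Cuffdiff is named for circular RNAs, but the tool that made these FPKM values and the use of strand in counting are not given in the sources used here. The Methods name the assembly UMD 3.1.1, but of 16434 symbols shared with RefSeq genes of ARS-UCD2.0, 99.4% overlapped the locus of the same symbol, all 8 genes described here among them, so positions are those of the table on an ARS-UCD assembly. The study lists the reads of each library, but the files hold no counts, so the number of fragments behind a value is unknown and no counting interval was given: among genes with low values in both libraries, at most 3.60% lay at the commonest ratio to calf 1, so reads could not be recovered. Summed FPKM ran from 587066 (calf 3) to 1098720 (calf 2).

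Values were transformed to log2(FPKM + 1), features reaching an FPKM of 1 in 3 or more libraries were kept, and a 2-group linear model was fitted with limma 3.58.1 in R 4.3.3 (trend, two-sided, Benjamini-Hochberg over all features tested). Adding 1 draws the fold changes of low genes toward 0. Features were called at an adjusted p below 0.05 and a fold change of 2 or more. As a check, data were simulated with the observed mean and spread of each gene, of which 16731 passed the filter. The features to be changed were drawn from those with a mean log2(FPKM + 1) above 2, and the same spread was used in all 6 libraries. The check therefore does not cover low features or a library that stands apart, as calf 3 does. The fit recovered 59 of 100 genes changed by a log2 fold change of 2 and 81 of 100 changed by 4, with 3 unchanged genes called. For 20737 simulated transcripts these were 57, 82 and 15. A first simulation changed 200 features by 2 only and recovered 105 genes and 96 transcripts; the larger change was added after that was seen. Shares within a family were compared by exact permutation over libraries (20 labelings). A total of 2 settings were changed after their first results were seen. Quantile normalization was first run before the filter and then after it, and the filter was first re-applied to the 5 libraries left and then kept as set by all 6. The second change was made because, without a bull, the filter asked for expression in a calf and dropped genes seen in bulls alone. Values under the first settings are given with the alternatives. Figures were drawn with matplotlib 3.10.9.

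Nothing in the labels says more of the animals than 1 library each, and p-values measure the spread between these libraries. The genes and the lists were chosen with earlier results of these data known. The text names the 8 genes, their transcripts with at least 10% of the mean level in either group, the gene most correlated with each, and for each list the 3 called genes with the largest changes in each direction and the uncalled gene with the highest mean level. Some genes that this rule names are not reported here. Of 34 transcripts of the 8 genes, 16 were tested, 14 called higher and none lower, against 34.8% and 9.37% of all transcripts tested. However, 6 of the 16 were below 1 in every calf and could be called higher only. The share of CPEB2 in CPEB1 and CPEB2 could not be computed, and its share in CPEB2, CPEB3 and CPEB4 was used instead.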

Additional observations from a re-analysis of the deposited data

How the results depend on the processing

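Where they passed the filter, the 8 genes kept their direction under every alternative computed, 186 values in all, of which 180 also kept their side of the threshold and 6 gained a call (DAZL and CPEB2, each without calf 3 under both filters and with array weights). Leaving out each library in turn gave 6 to 8 of these genes called higher and 0 lower. With an FPKM of at least 1 required in all 6 libraries, 4 were called higher and 0 lower. DAZL, BOLL and YBX2, which were below 1 in calf 3, were not tested there. Quantile normalization together with the loss of calf 3 was chosen after seeing the data. The replicate number used as a block gave 6 genes called higher and 0 lower, as without it. The correlations of the deviations of same-numbered libraries from the group means were 0.0277, 0.0246 and 0.0341, and no list moved past 1.5 times its count under the block. Calf 3 weighs heavily in the deviations of all calves, so these values cannot decide whether same-numbered libraries shared more than a number.

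Over all genes, 6474 were called higher and 1741 lower, and 3827 and 4538 after quantile normalization, 4062 and 5275 when calf 3 was also left out, and 2220 and 1138 with an FPKM of at least 1 in all 6 libraries, where fewer genes are tested. Rescaling to the same sum gave 1070 lower. For transcripts, quantile normalization gave 5018 higher and 5884 lower over the table (8079 and 2176 without it), and 9 in place of 14 transcripts of the 8 genes. The difference in the share of BOLL was −7.74 percentage points and reversed to 21.96 without calf 3, since both genes are near 0 there. Over the libraries left out it ran from −23.46 to 21.96.

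For the lists, quantile normalization gave 2 higher and 2 lower for cytoplasmic polyadenylation (1 and 1 without calf 3), 2 and 2 for germline repressors (3 lower without calf 3), 1 and 4 for messenger RNP proteins (6 lower without calf 3), and 3 lower for meiotic and spermatid proteins (3 without calf 3). An FPKM of at least 1 in all 6 libraries left 2 germline repressors, 3 meiotic and spermatid proteins and 2 bound messages called higher. Array weights gave 1, 2 and 0 lower for germline repressors, messenger RNP proteins and meiotic and spermatid proteins, median-ratio scaling gave 2 lower for messenger RNP proteins, and rescaling to the same sum 0 lower for meiotic and spermatid proteins. With single libraries left out, the germline repressors ran from 2 to 4 higher (2 without each of the bulls) and from 0 to 1 lower, the messenger RNP proteins from 1 to 2 lower, and the meiotic and spermatid proteins from 0 to 1 lower (0 without calf 3 or bull 1). The cause of these shifts was not tested. The planned share of CPEB2 in CPEB1 and CPEB2 was not run.

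The settings run first, and replaced after their results were seen, gave the following. Quantile normalization before the filter called 4683 genes higher and 3917 lower, and 6 of the 8 genes higher. It gave the same list counts as above for cytoplasmic polyadenylation (2 and 2), germline repressors (2 and 2), messenger RNP proteins (1 and 4) and lower meiotic and spermatid proteins (3). With the filter re-applied to 5 libraries, the counts ran from 2478 to 6838 genes higher and from 1019 to 2117 lower, from 5 to 8 of the 8 genes higher, and from 2 to 11 bound messages. Without bull 1, bull 2 and bull 3 in turn they were 2500, 2478 and 2501 higher and 1019, 1073 and 1092 lower, where genes below an FPKM of 1 in every calf, YBX2 among them, were not tested.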

Other observations

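Of the 8 genes, 3 overlap another entry of the table on the genome. An assembled entry that overlaps YBX1 (XLOC_175308) was at 5.64, 7.24 and 3.68 in calf 1, calf 2 and calf 3 and at 53.7, 48.1 and 35.1 in bull 1, bull 2 and bull 3, far below YBX1 in every library. An assembled entry that overlaps one end of BOLL (XLOC_105947) lay between 0.170 and 0.223 in calves and between 2.51 and 3.07 in bulls. SLC2A4, a glucose transporter gene that overlaps the locus of YBX2, lay between 0.222 and 0.405 in calves and between 0.794 and 0.905 in bulls. The table gives no strand, and how fragments were divided between these entries was not tested.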
